A study of Mus musculus with 18 samples.

Results

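The genes described here encode 9 proteins of the Polycomb repressive complexes: EZH1, EZH2, EED, SUZ12 and JARID2 of Polycomb repressive complex 2 (PRC2), and BMI1, CBX2, CBX7 and CBX8 of Polycomb repressive complex 1 (PRC1). They were taken by symbol from the gene counts, where they made up 9 of the 24333 symbols shared by the tables of both lines, and all 9 passed the filter on low counts. The libraries came from cultures of 168FARN and 67NR, 2 mouse mammary tumour lines. Each line was sequenced as WT, *Kmt2c* KO and *Kmt2d* KO cells, with 3 replicates per group and 18 libraries in all. WT libraries of 168FARN were labelled sgControl in the counts and WT in the sample titles, whereas those of 67NR were labelled WT in both. KO cells were pools, not clones, made by transient delivery of Cas9 with sgRNAs against exon 1 of *Kmt2c* or *Kmt2d*, the genes of the MLL3 and MLL4 histone H3K4 methyltransferases, so a KO library can hold several edited alleles.

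Polycomb proteins keep genes silent through chromatin. In PRC2, EZH2 or its paralogue EZH1 methylates H3K27, EED binds the finished mark and stimulates the enzyme, SUZ12 holds the core together, and JARID2 helps to recruit the complex and tune its activity. In canonical PRC1, a CBX protein reads the H3K27me3 mark and BMI1 (PCGF4) is a partner of the RING1 ubiquitin ligases that modify histone H2A. EZH2 is typical of dividing cells and a known E2F target, EZH1 is typical of resting and differentiated cells, and H3K27 methylation is commonly described as opposed by the MLL3 and MLL4 complexes, which contain the H3K27 demethylase KDM6A.

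The promoters of 5 members on which the results turn are shown first: the paralogous enzymes EZH2 and EZH1, SUZ12, and EED and BMI1, which were called between KO and WT cells of 67NR. Each sequence runs from 250 bases before to 50 bases after the RefSeq start of the gene, on its own strand; sequences are from RefSeq (GRCm38.p6) and each matched the mm9 genome of the counts at 1 place. The windows lie in mm9 at chr6:47544980-47545279 (EZH2, minus strand), chr11:101087728-101088027 (EZH1, minus), chr11:79806358-79806657 (SUZ12, plus), chr7:97129437-97129736 (EED, minus) and chr2:18598395-18598694 (BMI1, plus). Capitals mark any of 4 E2F words, TTTCCCGC, TTTCGCGC, TTTGCCGC and TTTGGCGC, searched on both strands.
EZH2: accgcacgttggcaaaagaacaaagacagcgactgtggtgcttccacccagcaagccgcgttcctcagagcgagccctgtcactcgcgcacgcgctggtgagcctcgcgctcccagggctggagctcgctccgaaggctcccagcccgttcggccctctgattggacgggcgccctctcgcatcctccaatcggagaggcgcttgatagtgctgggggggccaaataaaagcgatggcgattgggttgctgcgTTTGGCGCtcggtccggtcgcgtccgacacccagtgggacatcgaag
EZH1: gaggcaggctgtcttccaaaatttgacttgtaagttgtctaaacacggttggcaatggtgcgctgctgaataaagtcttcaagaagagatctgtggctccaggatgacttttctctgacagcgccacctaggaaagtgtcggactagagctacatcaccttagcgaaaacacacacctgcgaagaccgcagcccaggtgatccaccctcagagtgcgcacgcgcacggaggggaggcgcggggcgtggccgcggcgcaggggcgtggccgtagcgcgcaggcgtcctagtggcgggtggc
SUZ12: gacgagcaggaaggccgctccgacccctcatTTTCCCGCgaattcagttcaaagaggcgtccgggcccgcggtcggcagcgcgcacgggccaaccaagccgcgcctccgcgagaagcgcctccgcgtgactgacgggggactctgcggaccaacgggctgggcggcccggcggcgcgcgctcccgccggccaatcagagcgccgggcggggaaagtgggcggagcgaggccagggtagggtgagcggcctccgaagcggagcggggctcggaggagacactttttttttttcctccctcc
EED: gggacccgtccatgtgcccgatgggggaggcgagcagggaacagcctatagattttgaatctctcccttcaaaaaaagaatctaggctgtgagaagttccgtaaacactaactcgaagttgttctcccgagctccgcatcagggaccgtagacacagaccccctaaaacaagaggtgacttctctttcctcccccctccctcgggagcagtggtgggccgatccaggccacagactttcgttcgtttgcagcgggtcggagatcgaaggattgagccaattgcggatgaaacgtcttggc
BMI1: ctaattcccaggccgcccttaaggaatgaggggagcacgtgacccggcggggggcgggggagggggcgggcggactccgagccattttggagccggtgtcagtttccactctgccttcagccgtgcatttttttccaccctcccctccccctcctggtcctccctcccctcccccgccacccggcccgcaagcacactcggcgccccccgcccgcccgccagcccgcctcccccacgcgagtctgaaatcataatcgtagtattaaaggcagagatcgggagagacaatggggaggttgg

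Promoters were matched for 8 of the 9 members, and 2 of these held an E2F word: EZH2 had TTTGGCGC 3 bases downstream of its start and SUZ12 had TTTCCCGC 219 bases upstream. These distances are from the RefSeq starts, and that of EZH2 lies 311 bases inside the gene span given below. Of 32851 promoters of the same length, 2.26% held any of the 4 words, with 0.514% for TTTGGCGC and 1.07% for TTTCCCGC. CpG dinucleotides numbered 31 in the EZH2 window, 23 in EZH1, 41 in SUZ12, 17 in EED and 23 in BMI1, against a median of 7 over all promoters. These are matches of letters only.

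In mm9, Ezh2 lies on chromosome 6 from 47480273 to 47545340 (minus strand), Ezh1 on chromosome 11 from 101052429 to 101087777 (minus), Eed on chromosome 7 from 97103166 to 97129493 (minus) and Suz12 on chromosome 11 from 79806608 to 79847625 (plus). Jarid2 spans chromosome 13 from 44824843 to 45017012 (plus) and Bmi1 chromosome 2 from 18598645 to 18608256 (plus). Cbx2 and Cbx8 are close together on chromosome 11, at 118884276 to 118892584 (plus) and 118897619 to 118902283 (minus), and Cbx7 is on chromosome 15 from 79746237 to 79801549 (minus). A lincRNA gene overlaps Ezh2 and another overlaps Suz12 on the opposite strand, and a snoRNA gene overlaps Jarid2. Whether the counting used strand is not given in the sources used here, so reads of these partners could be in the counts of the 3 genes.

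Gene counts summed to 14359760 to 43427382 reads a library in 168FARN and 40951775 to 79251530 in 67NR, and the members had between 108 and 17415 reads per library. Levels are given as CPM, the usual counts per library total, scaled by edgeR's TMM factors over the 18 libraries, and levels of different genes are compared only as CPM per kb of exon. *Kmt2c* and *Kmt2d* mRNA was not called lower in the KO pools aimed at each gene, and KMT2C was called higher in *Kmt2c* KO cells of 67NR (log2 fold change 0.63 ± 0.14 (SE), edgeR adjusted p = 0.0067). KMT2C was also called higher in *Kmt2d* KO cells of 67NR (log2 fold change 0.80), so its rise was not particular to the pool edited for it. With the replicate number as an added term, KMT2D was called higher in *Kmt2d* KO cells of 168FARN (0.66 ± 0.12, adjusted p = 0.0062; 0.71 ± 0.36, adjusted p = 1.0, without it). Mean KMT2C was 90.3 CPM in WT and 79.4 in *Kmt2c* KO cells of 168FARN, and 59.5 and 86.8 in 67NR, while mean KMT2D was 145 and 234, and 99.4 and 109, in WT and *Kmt2d* KO cells of these lines. Counts over a whole gene do not show small edits in exon 1 and cannot check the KO labels, so KO below names the label of a library. The study itself reports mostly mutant reads at the targeted sites of each KO pool, with the lowest share for *Kmt2c* in 67NR. It also reports lower KMT2C and KMT2D protein by immunoblot. Of the markers for mammary epithelium, EPCAM, CDH1 and KRT18 averaged 588, 492 and 926 CPM in WT 67NR but at most 0.11 CPM in each group of 168FARN, where KRT8 averaged 167 to 217 CPM and VIM 6235 to 8307 CPM. The leukocyte markers PTPRC and CD3E were at most 0.05 CPM in the mean of any group, and CD68 was at 27.2 to 61.7 CPM. The endothelial markers PECAM1 and KDR were at most 0.30 and 0.03 CPM.

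By the median of the 18 libraries on the per-kb scale, BMI1 (42.3) and SUZ12 (41.6) were highest, followed by EED (24.8), EZH2 (14.1) and CBX7 (5.70). CBX2 (3.11), EZH1 (3.0), CBX8 (2.40) and JARID2 (1.32) were lowest. When the 6 groups were ranked by mean CPM for each gene, 1 of the 5 steps between neighbouring groups exceeded the larger SD of the pair for SUZ12, between 67NR *Kmt2c* KO and 168FARN WT, and 1 of 5 for CBX7, between 67NR WT and 67NR *Kmt2d* KO. For the other 7 members, 0 of 5 steps did.

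**Figure D1:**
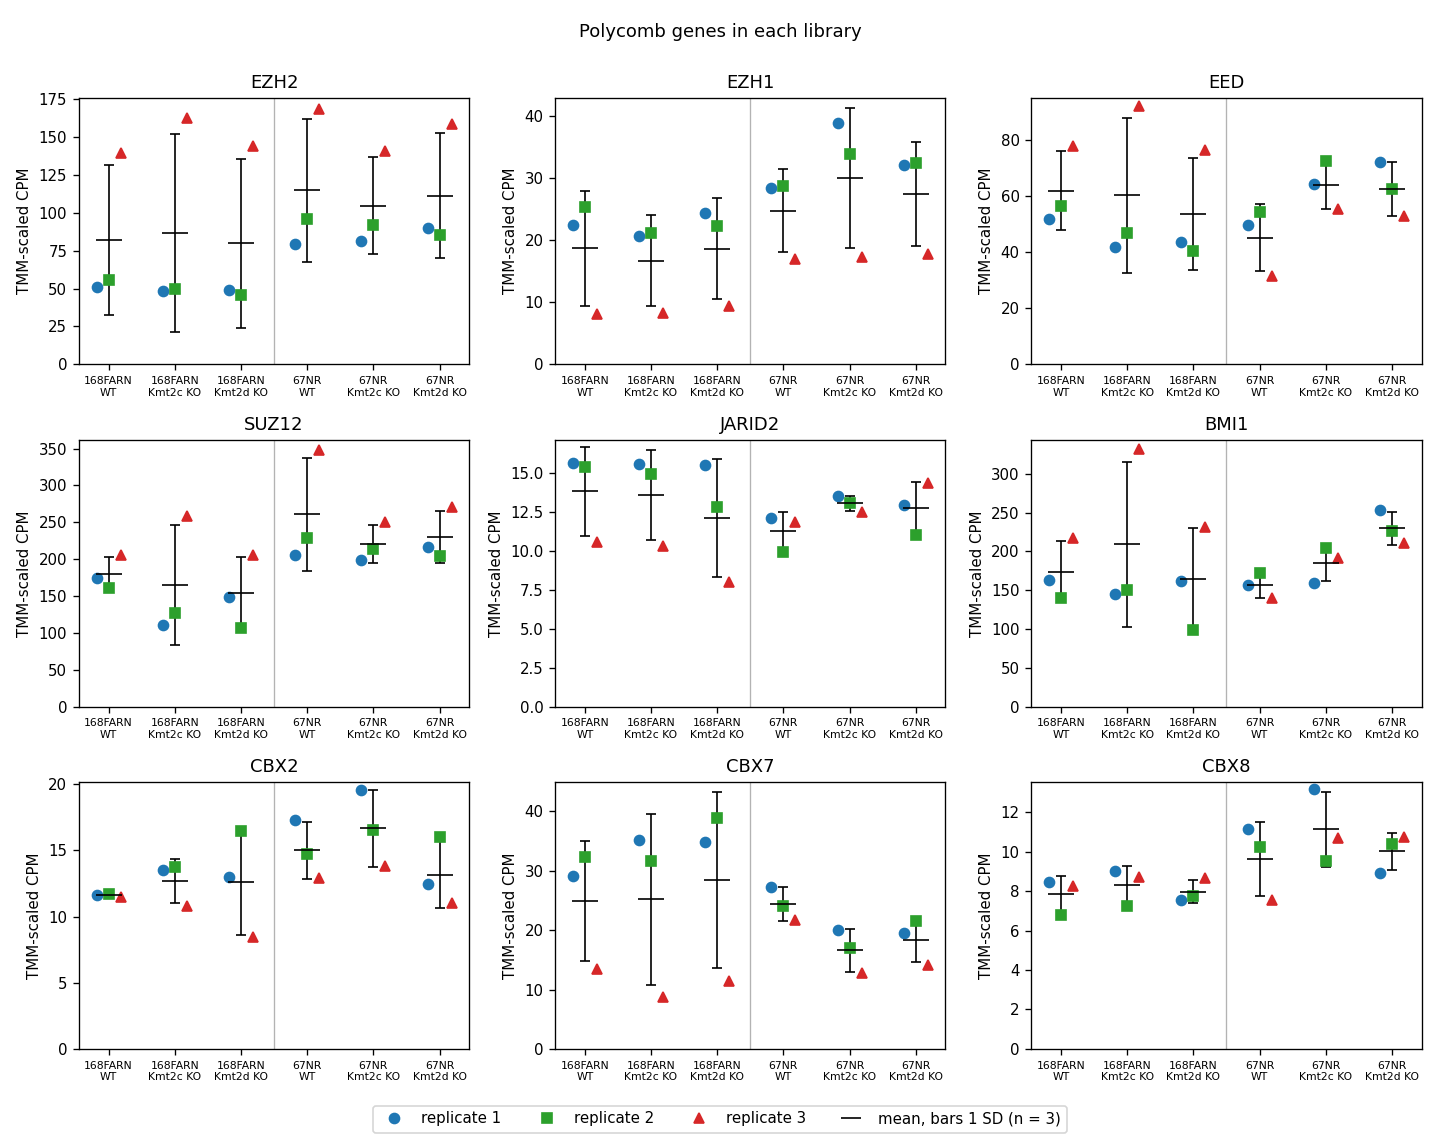
Level of each member in each of the 18 libraries, in TMM-scaled CPM on axes that start at 0; symbols are replicates 1, 2 and 3 of a group, horizontal bars are group means and vertical bars 1 SD (n = 3). EZH2 was highest and EZH1 lowest in replicate 3 of all 6 groups, and BMI1 in 67NR lay between 210 and 253 CPM in *Kmt2d* KO and between 140 and 172 CPM in WT cells.

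The catalytic subunits of PRC2 moved in opposite directions with the replicate number. EZH2 in WT 168FARN was at 51.04, 55.6 and 139 CPM in replicates 1, 2 and 3, at 48.5, 50.04 and 162 in *Kmt2c* KO and at 49.2, 46.0 and 144 in *Kmt2d* KO cells. The 67NR libraries had 79.7, 96.2 and 169 in WT, 81.1, 92.3 and 141 in *Kmt2c* KO and 89.8, 85.2 and 159 in *Kmt2d* KO cells. Replicate 3 was thus the highest library in all 6 groups, and within each line it did not overlap with replicates 1 and 2 of any genotype. EZH1 stood at 22.4, 25.5 and 8.16 CPM in the 168FARN WT libraries, 20.8, 21.2 and 8.23 in *Kmt2c* KO and 24.4, 22.3 and 9.38 in *Kmt2d* KO cells. In 67NR it was at 28.5, 28.8 and 17.0, at 38.9, 34.0 and 17.3, and at 32.2, 32.5 and 17.8 in the same order. Replicate 3 was here the lowest library in all 6 groups, again without overlap within a line. In bulk RNA, a different share of cells that make a transcript and a different amount per cell cannot be told apart.

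The ratio of EZH2 to EZH1, each per kb, accordingly differed more between replicates than between genotypes. In 168FARN it was 2.42 to 2.83 in replicates 1 and 2 and 18.5 to 23.7 in replicate 3, and in 67NR 2.51 to 4.01 and 9.82 to 11.9. The WT, *Kmt2c* KO and *Kmt2d* KO libraries of replicate 3 had ratios of 20.5, 23.7 and 18.5 in 168FARN and 11.9, 9.82 and 10.7 in 67NR.

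**Figure D2:**
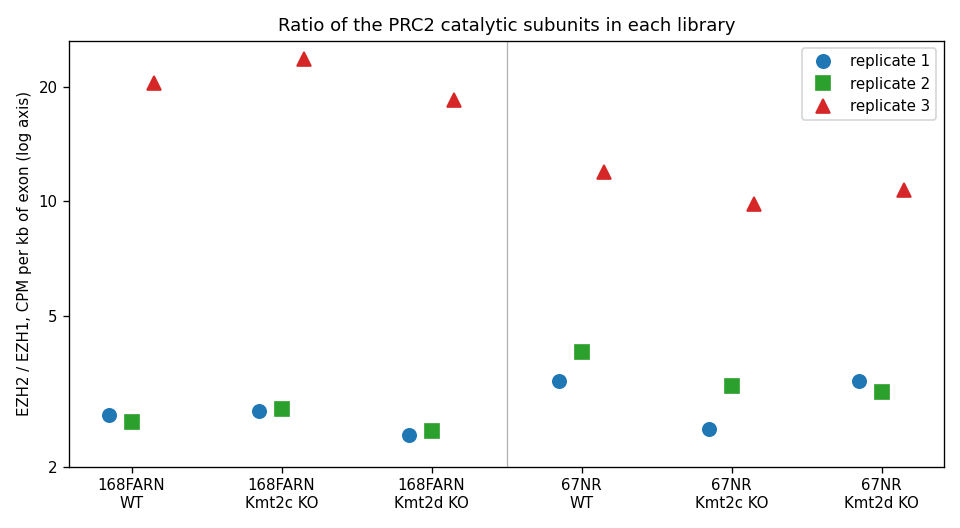
Ratio of EZH2 to EZH1, each in CPM per kb of exon, in each library (log axis), by group, with a symbol for each replicate number. Replicates 1 and 2 lie between 2.42 and 4.01 in all 6 groups and replicate 3 between 9.82 and 23.7.

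Of the other members, SUZ12, EED, BMI1, CBX7 and JARID2 also split by replicate number in 168FARN. Such a difference was common: replicate 3 had the same direction in all 3 genotypes for 78% of genes tested in 168FARN and 63.7% in 67NR. How many of all genes lacked overlap between replicate 3 and the others was not counted. SUZ12 was at 175, 160 and 205 CPM in WT, 111, 127 and 258 in *Kmt2c* KO and 148, 107 and 206 in *Kmt2d* KO cells of 168FARN, so that replicate 3 was highest in each genotype. EED was at 51.8, 56.5 and 78.0, at 42.0, 47.0 and 92.3, and at 43.7, 40.6 and 76.7 CPM in these groups, again with replicate 3 highest. BMI1, at 164, 140 and 218, at 146, 150 and 332, and at 162, 98.5 and 231 CPM, had the same order. CBX7, a PRC1 reader of the H3K27me3 mark that is common in differentiated cells, went the other way, with 29.0, 32.2 and 13.4 CPM in WT, 35.2, 31.6 and 8.75 in *Kmt2c* KO and 34.8, 38.9 and 11.5 in *Kmt2d* KO cells. JARID2 was at 12.8 to 15.6 CPM in replicates 1 and 2 and at 8.03 to 10.5 in replicate 3 of 168FARN, without overlap. The ranges of CBX2 (11.6 to 16.5 and 8.48 to 11.5) did not overlap either, although its WT libraries were close together at 11.6, 11.7 and 11.5 CPM, and those of CBX8 (6.81 to 9.01 and 8.28 to 8.69) overlapped. In 67NR, SUZ12 was at 199 to 229 CPM in replicates 1 and 2 and at 250 to 349 in replicate 3, again without overlap, whereas the ranges overlapped for JARID2 (9.93 to 13.5 and 11.8 to 14.3), CBX2 (12.5 to 19.6 and 11.1 to 13.8) and CBX8 (8.93 to 13.2 and 7.56 to 10.7).

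On the log2 CPM scale, replicate 3 differed from the mean of replicates 1 and 2 of the same group, averaged over the 3 genotypes of 168FARN, by 1.57 for EZH2, 0.85 for BMI1, 0.82 for EED, 0.71 for SUZ12, 0.14 for CBX8, -0.38 for CBX2, -0.64 for JARID2, -1.40 for EZH1 and -1.59 for CBX7. The sign was the same in all 3 genotypes for each of the 9 members, 5 higher and 4 lower, as it was for 78% of all genes tested. A change of over 2-fold was seen for 3 of the 9 members (EZH2, EZH1 and CBX7) and for 28.1% of the 12253 genes tested, so the share among members was close to that of all genes. In 67NR, the differences were 0.83 for EZH2, 0.43 for SUZ12, 0.08 for JARID2, -0.12 for BMI1, -0.15 for CBX8, -0.36 for CBX2, -0.44 for CBX7, -0.46 for EED and -0.90 for EZH1. The sign was shared by the 3 genotypes for EZH2 and SUZ12 (higher) and for EZH1, EED, CBX7 and CBX2 (lower), which is 6 of 9 members beside 63.7% of all genes, and 0 of 9 members passed 2-fold, against 14.5% of 13665 genes. EED was thus higher in replicate 3 in 168FARN and lower in 67NR.

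**Figure D3:**
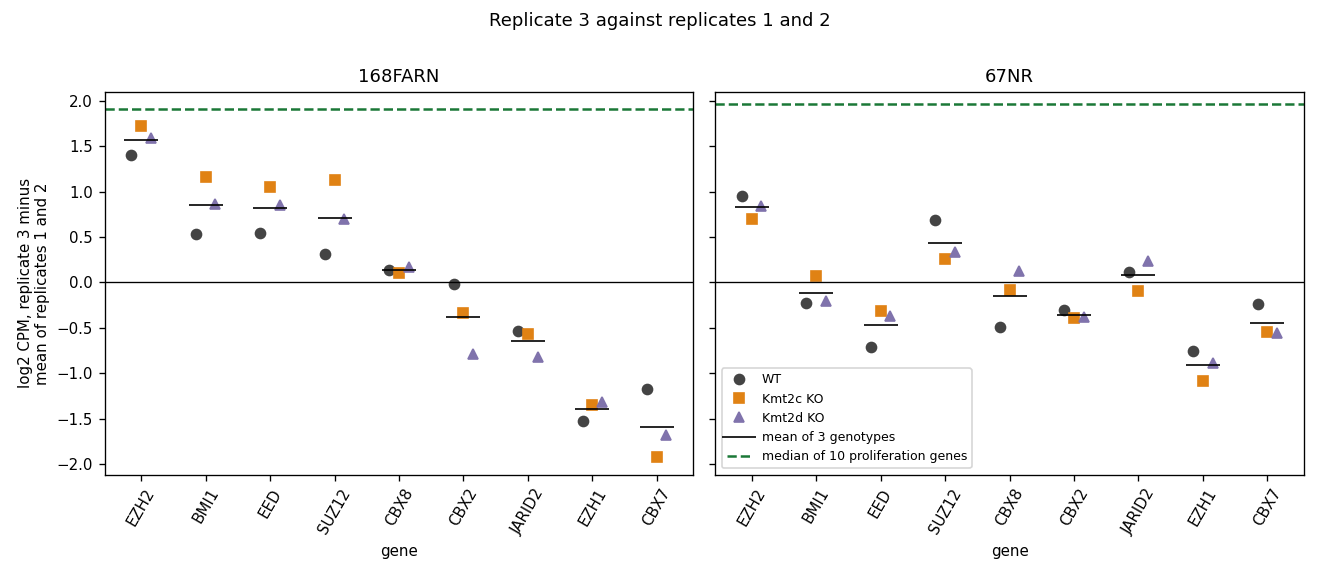
Difference in log2 CPM between replicate 3 and the mean of replicates 1 and 2 for each member, in 168FARN and 67NR, with a symbol per genotype, a bar for the mean of the 3 genotypes and a dashed line at the median of the 10 proliferation genes. EZH2 stands at a mean of 1.57 and 0.83 and EZH1 at -1.40 and -0.90, while the proliferation genes have medians of 1.90 and 1.96.

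Genes of S phase and mitosis moved with this split. All 10 genes of the proliferation list (MKI67, TOP2A, CDK1, CCNB1, CCNA2, PCNA, MCM2, MCM5, E2F1 and E2F2) were higher in replicate 3 in every group, by 1.30 to 4.16 on the log2 scale in 168FARN (median 1.90) and by 1.06 to 2.29 in 67NR (median 1.96). Over all genes tested, the medians were -0.01 and -0.03. CD68, a lysosomal protein used as a macrophage marker, was at 72.1 to 93.2 CPM in replicates 1 and 2 and at 2.84 to 5.37 in replicate 3 of 168FARN. The part of these genes in the levels of EZH2 and EZH1 was not tested, and how replicate 3 differed from the others in its collection is not given in the labels.

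Sums of squares of log2 CPM were used to describe how the variation among the 9 libraries of a line was shared out. In 168FARN the replicate number held 98.8% for EZH2, 97.7% for EZH1 and 94.1% for CBX7, and 54.6% to 87.6% for the other 6 members, against a median of 67.7% over all genes. Genotype held 0.23% to 7.85% for the 9 members, against a median of 14.2%. In 67NR the replicate number still held 96.0% for EZH2, 88.6% for EZH1 and 77.8% for SUZ12, with a median of 24.7% over all genes. Genotype held 80.0% for BMI1, 57.0% for EED, 55.7% for JARID2 and 43.1% for CBX7, with a median of 49.3%. EZH2 and EZH1 thus varied mainly with the replicate number in both lines, and BMI1 mainly with the genotype in 67NR.

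**Figure D4:**
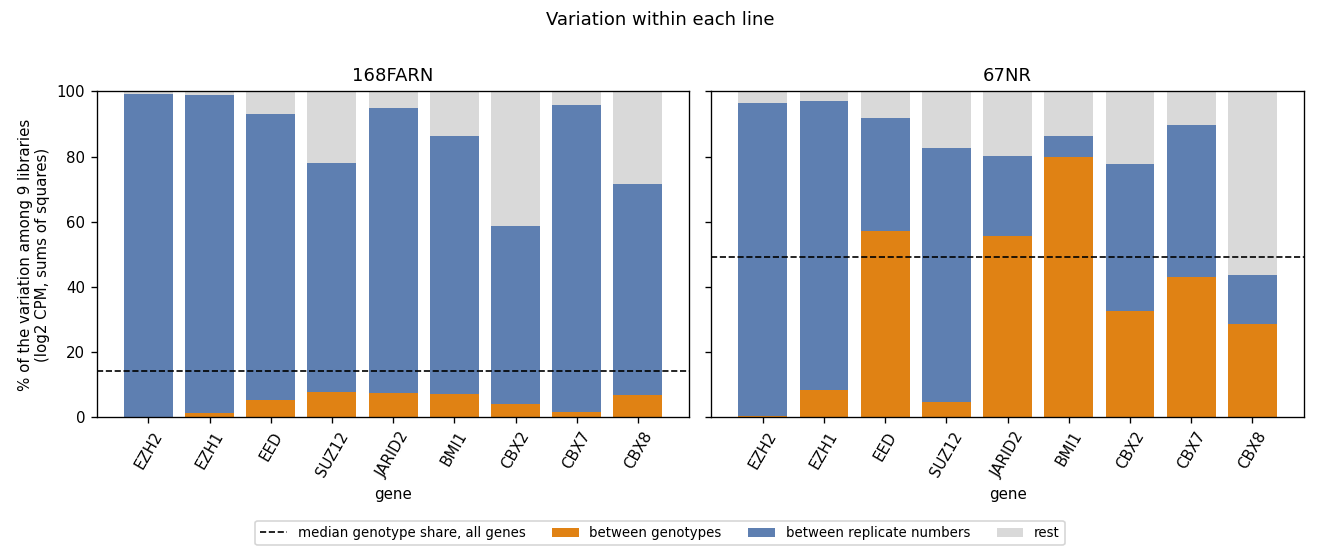
Share of the variation in log2 CPM among the 9 libraries of each line that lies between genotypes, between replicate numbers and in the rest, stacked to 100% for each member; the dashed line is the median genotype share over all genes (14.2% in 168FARN, 49.3% in 67NR). BMI1 (80.0%), EED (57.0%) and JARID2 (55.7%) lie above the line in 67NR, and each member lies below it in 168FARN.

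The genes whose log2 CPM followed each enzyme most closely were found by the lower of the Pearson correlations over the 9 libraries of 168FARN and the 9 of 67NR, among 11988 genes. For EZH2 these were RBL1 (r = 0.992 and 0.990), HMGB1 (0.993 and 0.982) and PBK (0.986 and 0.980), and for EZH1 they were SUSD6 (0.979 and 0.986), TTC17 (0.976 and 0.984) and RAD52 (0.976 and 0.968). EZH2 and EZH1 themselves had r = -0.977 and -0.906. SUZ12 followed EZH2 in both lines (0.868 and 0.933), whereas EED (0.964 and -0.557) and BMI1 (0.883 and -0.119) followed it in 168FARN but not in 67NR. The points share libraries and the split by replicate number, and the coefficients describe these libraries only.

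KO cells were compared with WT within each line to ask whether the Polycomb genes differed after editing of *Kmt2c* or *Kmt2d*; both KO comparisons of a line share its WT libraries. In 168FARN, 0 of 9 members were called in *Kmt2c* KO cells and 0 of 9 in *Kmt2d* KO cells at an adjusted p under 0.05 in edgeR's quasi-likelihood test, where 0.188% and 0.155% of 12253 genes were called. The members' log2 fold changes lay between -0.15 (EZH1) and 0.27 (BMI1) in *Kmt2c* KO and between -0.21 (SUZ12) and 0.21 (CBX7) in *Kmt2d* KO cells. At an unadjusted p under 0.05, the count was 0 in both comparisons, beside 5.92% and 5.28% of all genes. DESeq2 called 0 members in both, beside 162 genes higher and 131 lower in *Kmt2c* KO and 125 and 129 in *Kmt2d* KO cells. After a block for replicate number was added, the members called were still 0 and 0 of 9, where 10.7% and 6.64% of all genes were called.

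The block narrowed the intervals for the enzymes. For EZH2 in 168FARN, the log2 fold changes for *Kmt2c* KO and *Kmt2d* KO were 0.08 ± 0.67 (SE) and -0.03 ± 0.67 without the block. With the block, the 95% intervals ran from -0.23 to 0.23 and from -0.31 to 0.16. EZH1 had -0.15 ± 0.55 and 0.02 ± 0.55, with blocked intervals from -0.39 to 0.14 and from -0.21 to 0.32. When only replicates 1 and 2 were fitted, a choice made after seeing the data, SUZ12 was lower in *Kmt2c* KO cells of 168FARN by a log2 fold change of -0.48 ± 0.14 (SE; edgeR adjusted p = 0.016), against -0.13 ± 0.36 with all 3 replicates. This was 1 of 9 members, where 29.5% of all genes were called. Its levels in replicates 1 and 2 were 111 and 127 CPM in KO and 175 and 160 in WT, and in replicate 3 258 and 205, so KO was lower in the former and higher in the latter.

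In 67NR, where many more genes were called, BMI1 was higher in *Kmt2d* KO cells. Its level was 157, 172 and 140 CPM in WT and 253, 226 and 210 CPM in *Kmt2d* KO cells, and the groups did not overlap. The log2 fold change was 0.63 ± 0.15 (SE, n = 3), with a Benjamini-Hochberg adjusted p of 0.017 in edgeR's quasi-likelihood test, and 0.64 ± 0.13 (adjusted p = 0.0027) with the replicate block. BMI1 was the only 1 of the 9 members called in this comparison without the block, where 22.8% of 13665 genes were called. The call was lost without *Kmt2d* KO replicate 1, *Kmt2d* KO replicate 2 or WT replicate 1, with log2 fold changes of 0.55 to 0.71 and adjusted p-values of 0.021 to 0.078 over the 6 fits that left out a library. In *Kmt2c* KO cells BMI1 was at 159, 204 and 191 CPM and overlapped with WT, and 0 of 9 members were called by edgeR without the block, against 34.2% of all genes. At an unadjusted p under 0.05 the count was 1 of 9 for *Kmt2c* KO, beside 43.6% of all genes, and DESeq2 called 1 of 9, EED (log2 fold change 0.60, adjusted p = 0.045), beside 40.4%.

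EED, the subunit of PRC2 that reads H3K27me3, was higher in both KO pools of 67NR once the replicate number was in the fit. WT libraries held 49.9, 54.3 and 31.6 CPM of EED, those of *Kmt2c* KO 64.3, 72.5 and 55.6 and those of *Kmt2d* KO 72.4, 62.7 and 53.0, so that within each replicate number both KO libraries were above WT. The log2 fold changes were 0.59 ± 0.22 (edgeR adjusted p = 0.073) in *Kmt2c* KO and 0.55 ± 0.22 (adjusted p = 0.12) in *Kmt2d* KO cells without the block. With the block, they were 0.61 ± 0.14 (adjusted p = 0.0029) and 0.57 ± 0.14 (adjusted p = 0.0061). CBX7 was at 27.3, 24.1 and 21.7 CPM in WT and at 20.1, 16.9 and 12.8 CPM in *Kmt2c* KO cells, without overlap. It was lower in the blocked fit by a log2 fold change of -0.49 ± 0.15 (edgeR adjusted p = 0.016), with -0.47 ± 0.23 (adjusted p = 0.15) without the block. In *Kmt2d* KO cells CBX7 was at 19.5, 21.5 and 14.2 CPM, with a blocked log2 fold change of -0.34 ± 0.15 (edgeR adjusted p = 0.084). With the block, 2 of 9 members were called in *Kmt2c* KO cells (EED and CBX7) and 2 of 9 in *Kmt2d* KO cells (BMI1 and EED), where 52.5% and 41.8% of all genes were called.

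The enzymes were not called in either fit of all libraries in 67NR. EZH2 had log2 fold changes of -0.05 ± 0.35 and 0.03 ± 0.35 for *Kmt2c* KO and *Kmt2d* KO, with blocked 95% intervals from -0.28 to 0.25 and from -0.21 to 0.31. EZH1 had 0.36 ± 0.36 and 0.23 ± 0.36, with blocked intervals from 0.03 to 0.61 (edgeR adjusted p = 0.059) and from -0.07 to 0.51. With replicates 1 and 2 only, EZH1 was higher in *Kmt2c* KO cells by 0.43 ± 0.13 (edgeR adjusted p = 0.0073), at 38.9 and 34.0 CPM against 28.5 and 28.8 in WT, whereas replicate 3 stood at 17.3 against 17.0. These replicates alone gave calls for 3 of 9 members in *Kmt2c* KO (EED, EZH1 and CBX7) and 2 of 9 in *Kmt2d* KO cells (BMI1 and EED), where 60.4% and 51.2% of all genes were called. SUZ12, JARID2, CBX2 and CBX8 were not called in either KO with or without the block, with log2 fold changes of -0.16 to 0.29 without it.

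**Figure D5:**
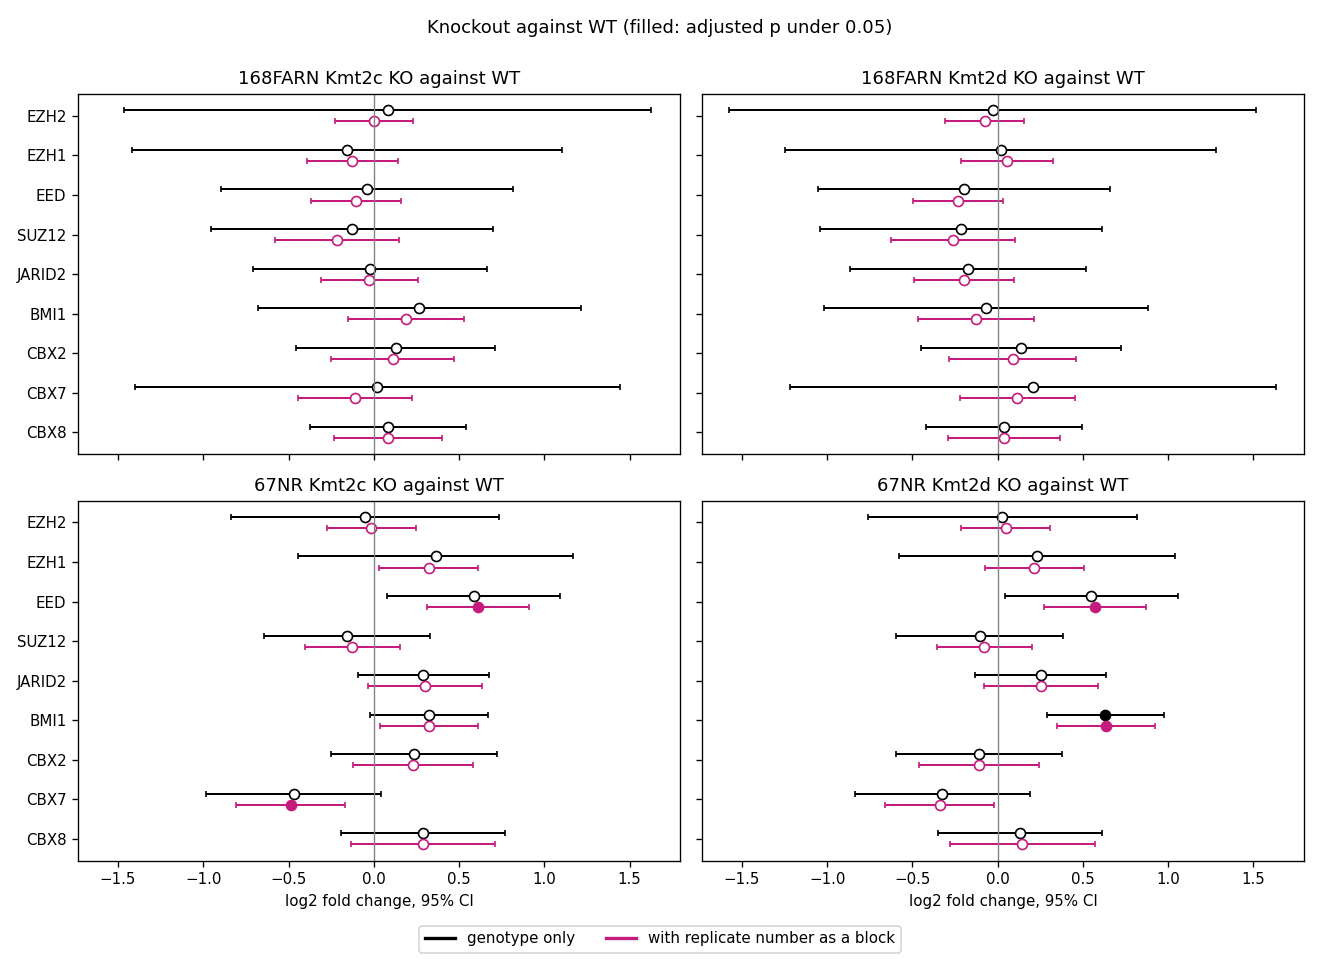
Log2 fold change of each member in KO against WT cells for the 4 comparisons, with 95% intervals, in edgeR fits with genotype only (black) and with a replicate block (magenta); filled points have an adjusted p under 0.05. Points are filled only in 67NR, for BMI1 and EED in *Kmt2d* KO and for EED and CBX7 in *Kmt2c* KO cells, and all of these but BMI1 only with the block.

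Members were also compared between the KO pools. In 168FARN, 0 of 9 were called between *Kmt2c* KO and *Kmt2d* KO cells by edgeR with or without the block, where 0.171% and, with the block, 6.63% of all genes were called. At an unadjusted p under 0.05 without the block the count was 0, beside 5.03% of all genes. DESeq2 called 0 members, beside 139 genes higher and 104 lower. In 67NR, 0 of 9 were likewise called by edgeR in both fits, where 0.659% and, with the block, 6.15% of all genes were called. At an unadjusted p under 0.05 the count was 0 without the block and 1 with it, beside 10.9% and 23.1% of all genes. DESeq2 called 0 members there, beside 122 genes higher and 415 lower. For BMI1, *Kmt2c* KO against *Kmt2d* KO in 67NR gave a log2 fold change of -0.31 ± 0.15 (edgeR adjusted p = 0.52), and -0.39 ± 0.13 (adjusted p = 0.034) with replicates 1 and 2 only, 1 of 9 members beside 22.1% of all genes.

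WT cells of the lines were compared for the starting levels. Without the block, 0 of 9 members were called between WT 67NR and WT 168FARN by edgeR, where 36.5% of 13882 genes were called. At an unadjusted p under 0.05 the count was 0 of 9, beside 44.7% of all genes. DESeq2 called 0 of 9, beside 3131 genes higher and 2548 lower. With the replicate block within each line, 4 of 9 were called, where 62.7% of genes were called. This block pairs no library across the lines. It takes the difference between the replicate numbers of a line out of the error, so these calls do not allow for the spread between collections. EZH2 was higher in 67NR by 0.57 ± 0.11 (edgeR adjusted p = 0.0003), EZH1 by 0.52 ± 0.12 (adjusted p = 0.0015) and SUZ12 by 0.50 ± 0.16 (adjusted p = 0.012), and EED was lower by a log2 fold change of -0.47 ± 0.13 (adjusted p = 0.0056). Replicate 3 carried part of this: with replicates 1 and 2 only, the log2 fold change was 0.23 ± 0.12 for EZH1 (edgeR adjusted p = 0.096) and -0.09 ± 0.12 for EED (adjusted p = 0.53), while EZH2 (0.69 ± 0.12, adjusted p = 2.9e-05), SUZ12 (0.35 ± 0.13, 0.025), CBX2 (0.43 ± 0.16, 0.023) and CBX8 (0.46 ± 0.18, 0.034) were higher and JARID2 (-0.52 ± 0.15, 0.0045) was lower, 5 of 9 members beside 68.9% of all genes. CBX2 was at 11.6, 11.7 and 11.5 CPM in WT 168FARN and 17.3, 14.8 and 12.9 in WT 67NR, and CBX8 at 8.48, 6.81 and 8.28 and at 11.2, 10.2 and 7.56. JARID2 was at 15.6, 15.3 and 10.5 and at 12.1, 9.93 and 11.8 CPM, and SUZ12 at 175, 160 and 205 and at 206, 229 and 349. The lines did not overlap for CBX2 and SUZ12, whereas replicate 3 overlapped with the other line for CBX8 and JARID2. The line and the batch of its libraries cannot be told apart.

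Whether a KO acted differently in the lines was tested as an interaction over the 18 libraries. Without the block, 0 of 9 members were called for *Kmt2c* KO and 0 of 9 for *Kmt2d* KO, where 11.5% and 7.3% of genes were called. At an unadjusted p under 0.05 the count was 0 in both, beside 23.8% and 18.8% of all genes. DESeq2 called 0 members in both, beside 1258 genes higher and 1147 lower for *Kmt2c* KO and 1028 and 632 for *Kmt2d* KO. With the block, EED differed for *Kmt2c* KO (0.63 ± 0.19 on the log2 scale, edgeR adjusted p = 0.014), 1 of 9 members against 36.3% of genes. EED (0.74 ± 0.19, edgeR adjusted p = 0.007) and BMI1 (0.70 ± 0.22, adjusted p = 0.024) differed for *Kmt2d* KO, 2 of 9 against 29% of genes. In each case the KO effect was higher in 67NR than in 168FARN, where EED had blocked log2 fold changes of -0.11 ± 0.12 and -0.23 ± 0.12 in *Kmt2c* KO and *Kmt2d* KO cells and BMI1 had -0.12 ± 0.16 in *Kmt2d* KO cells. With replicates 1 and 2 only, CBX7 was called in addition, at -0.60 ± 0.18 (edgeR adjusted p = 0.013) for *Kmt2c* KO and -0.57 ± 0.19 (adjusted p = 0.021) for *Kmt2d* KO, and EZH1 for *Kmt2c* KO at 0.54 ± 0.17 (adjusted p = 0.015), which made 3 of 9 members in each, beside 42.9% and 36.6% of all genes.

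The wider set of Polycomb genes, 37 further subunits of PRC1, PRC2 and the PR-DUB deubiquitinase and the H3K27 demethylases, was read in the same fits. In 67NR, 34 were tested, of which 5 were higher and 5 lower in *Kmt2c* KO and 4 higher and 6 lower in *Kmt2d* KO cells, with median log2 fold changes of -0.12 and -0.04 beside -0.02 and -0.02 over all genes. These 10 of 34 in each stood beside 34.2% and 22.8% of all genes called, and with the block 7 were higher and 8 lower and 5 higher and 7 lower, beside 52.5% and 41.8%. The 3 genes named next were those called in the same direction in each KO pool with a log2 fold change beyond 1 in at least 1 of them. PCGF6, the PCGF subunit of a variant PRC1 complex, was at 49.1, 56.5 and 57.0 CPM in WT, 13.1, 14.2 and 6.81 in *Kmt2c* KO and 21.7, 24.7 and 21.4 in *Kmt2d* KO cells. Every KO library was below every WT library, with log2 fold changes of -2.17 ± 0.26 (edgeR adjusted p = 0.00027) and -1.18 ± 0.26 (adjusted p = 0.0099).

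BCOR, a partner of PCGF1 in another variant PRC1 complex, was at 29.1, 30.6 and 37.1 CPM in WT, 13.3, 12.6 and 12.5 in *Kmt2c* KO and 17.8, 20.4 and 18.9 in *Kmt2d* KO cells. It was lower in both, at -1.25 ± 0.16 (edgeR adjusted p = 0.00031) and -0.68 ± 0.15 (adjusted p = 0.012). EPOP, an accessory subunit of PRC2 counted under its older symbol, was at 7.98, 5.91 and 13.2 CPM in WT, 1.2, 0.98 and 1.24 in *Kmt2c* KO and 0.81, 1.38 and 2.71 in *Kmt2d* KO cells, and fell by 2.90 ± 0.48 and by 2.40 ± 0.47 on the log2 scale (edgeR adjusted p = 0.0015 and 0.006). In 168FARN, 0 of 35 genes of the set were called by edgeR in either KO, beside 0.188% and 0.155% of all genes. At an unadjusted p under 0.05 the counts were 0 and 2, beside 5.92% and 5.28%. DESeq2 called 0 and 1 of the set, beside 162 genes higher and 131 lower in *Kmt2c* KO and 125 and 129 in *Kmt2d* KO cells. With the block, E2F6 was lower in *Kmt2c* KO (-0.52, edgeR adjusted p = 0.027) and CBX6 higher in *Kmt2d* KO cells (0.61, adjusted p = 0.0095). They were 1 of 35 genes in each KO, where 10.7% and 6.64% of all genes were called, and were picked after their values were seen. PCGF6, BCOR and EPOP were also higher in WT 67NR than in WT 168FARN, by 2.66, 1.80 and 5.35 on the log2 scale (edgeR adjusted p = 1.1e-06, 8.9e-07 and 0.00016), and their mean levels in both KO groups of 67NR lay below that of WT 67NR and above that of each group of 168FARN.

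Of 8 genes that Polycomb proteins hold silent in many cell types, 3 were tested in each line (CDKN2A, PAX6 and GATA4), and the other 5 averaged at most 0.21 CPM in every group. CDKN2A, which encodes the cell cycle inhibitors p16 and p19 and is a classical target of BMI1 and CBX7, was at 1.12, 0.84 and 0.73 CPM in WT 67NR, 10.5, 9.34 and 9.91 in *Kmt2c* KO and 5.996, 8.85 and 8.89 in *Kmt2d* KO cells. PAX6, a transcription factor of eye and neural development, was at 0.71, 0.71 and 1.03 CPM in WT, 11.8, 12.03 and 19.9 in *Kmt2c* KO and 9.65, 8.54 and 13.5 in *Kmt2d* KO cells. Neither gene overlapped between KO and WT libraries. The log2 fold changes were 3.53 ± 0.27 and 3.20 ± 0.26 for CDKN2A (edgeR adjusted p = 1.6e-05 and 4.5e-05) and 4.25 ± 0.33 and 3.78 ± 0.32 for PAX6 (adjusted p = 1.8e-05 and 5.5e-05). GATA4, a heart and gut transcription factor, was called only with the block and only in *Kmt2c* KO cells (0.63 ± 0.20, edgeR adjusted p = 0.019), with 0.69 ± 0.37 (adjusted p = 0.19) without it. The medians of the 3 genes were 3.53 and 3.20, beside -0.02 and -0.02 over all genes. In 67NR, 2 of 3 were called in each KO without the block, beside 34.2% and 22.8% of all genes. With the block, 3 and 2 were called, beside 52.5% and 41.8%. Before any KO, 2 of the 3 were called lower in WT 67NR than in WT 168FARN by edgeR without the block, beside 36.5% of all genes. The lowest log2 fold change there was -4.51. In 168FARN 0 of 3 were called in either KO by edgeR, beside 0.188% and 0.155% of all genes, and 0 with the block, beside 10.7% and 6.64%. DESeq2 also called 0, beside 162 genes higher and 131 lower in *Kmt2c* KO and 125 and 129 in *Kmt2d* KO cells. At an unadjusted p under 0.05 without the block the count was 0, beside 5.92% and 5.28% of all genes. CDKN2A was at 18.9 to 28.9 CPM in replicates 1 and 2 of 168FARN and at 8.15 to 8.83 in replicate 3.

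Markers of cell state moved with the same comparisons in 67NR. Of the 9 markers tested of 12, 2 were higher and 3 lower in *Kmt2c* KO, and 2 higher and 2 lower in *Kmt2d* KO cells, where 34.2% and 22.8% of all genes were called. With the block, 2 were higher and 4 lower in each, beside 52.5% and 41.8%. PDGFRB, a mesenchymal receptor, was higher by 3.01 ± 0.35 and 2.42 ± 0.34 (edgeR adjusted p = 0.00021 and 0.0011), CDH1 was lower in *Kmt2c* KO at a log2 fold change of -2.80 ± 0.19 (adjusted p = 1.1e-05) and EPCAM was lower in *Kmt2d* KO cells at -1.37 ± 0.23 (adjusted p = 0.003). In 168FARN, 0 of 5 markers tested were called in either KO by edgeR, beside 0.188% and 0.155% of all genes. At an unadjusted p under 0.05 the count was 0 in each, beside 5.92% and 5.28%. DESeq2 called 1 marker in each, beside 162 genes higher and 131 lower in *Kmt2c* KO and 125 and 129 in *Kmt2d* KO cells. Of the 10 proliferation genes, 0 were called in the 4 KO comparisons by edgeR, with 0 at an unadjusted p under 0.05 and 0 by DESeq2. With the block, 6 were higher and 1 lower in *Kmt2c* KO and 2 were lower in *Kmt2d* KO cells of 67NR, beside 52.5% and 41.8% of all genes. In 168FARN 1 was higher in *Kmt2c* KO and 0 were called in *Kmt2d* KO cells with the block, beside 10.7% and 6.64%. The part of these markers in the levels of BMI1, EED, CBX7, PCGF6 and CDKN2A was not tested.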

How the data were processed

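RNA of 18 cultures (2 lines, 3 genotypes, 3 replicates) was sequenced by the authors as poly(A) libraries made with a strand-specific kit, and reads were aligned with STAR to mm9. The deposited tables hold raw read counts per gene symbol, 1 table per line; the strand setting of the counting and the annotation release are not given in the sources used here. Groups were taken from the labels. Per the study's methods, replicates of a cell line were collected a passage apart. The p-values of fits without the replicate block thus measure the spread between collections of the same WT cells or KO pool, not between independently made pools. With the block, the difference between replicate numbers that the groups of a line share is taken out of this spread.

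Each line was fitted separately (9 libraries) with edgeR 4.0.16 (TMM, filterByExpr by group, robust quasi-likelihood test, R 4.3.3, limma 3.58.1) with genotype as the factor, and both lines were joined (18 libraries) for the WT comparison and the interactions. A gene was called at a Benjamini-Hochberg adjusted p under 0.05 over all 12253 (168FARN), 13665 (67NR) or 13882 (joined) genes tested. Log2 CPM for descriptions used a prior count of 2. Exon lengths and positions came from GENCODE on mm9. The fits were tested on simulated counts with 200 changed genes.

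Libraries of the same replicate number deviated together from their group means in each line. Their correlations spanned 0.351 to 0.717 for 67NR and 0.65 to 0.897 for 168FARN, all above 0.1. Pairs of replicate 1 with replicate 2 correlated about as well as same-number pairs of these replicates. The ranges were 0.284 to 0.523 beside 0.351 to 0.426 for 67NR, and 0.623 to 0.728 beside 0.65 to 0.738 for 168FARN. The correlations thus set replicate 3 apart but cannot decide whether replicates 1 and 2 pair by number. Pairing by number was assumed, and the blocked results rest on it. The fit with the replicate number as a block is given wherever it changes the call of a member or a count for a list. Alternatives were DESeq2 1.42.0 and its size factors, no filter on low counts, only the libraries compared, other thresholds, leaving out each library and, added after the data were seen, replicates 1 and 2 only. Total counts of 14359760 to 79251530 per library put at least 108 reads on each member. In *Kmt2d* KO replicate 3 of 67NR, 28.74% of the counts fell on RN45S, and its TMM factor in the 67NR fit was 0.715. The top gene of the other libraries held 0.91% to 4.96%. The 67NR table held 25 symbols turned into dates, of which 2 occurred more than once, and none was on a list used here.

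The members and gene lists were chosen with earlier results of these data known. Log2 fold changes of single members were given for those called in any of the fits described and for EZH1 and EZH2, and the others by their range. Of the wider list, genes were named that moved one way and were called in each KO pool of 67NR, with a log2 fold change beyond 1 in at least 1 of them. For EZH1 and EZH2, the 3 genes with the highest minimum correlation over the lines were named. Proliferation and marker genes were described by counts and, for markers, by the called genes at each end of the range.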

Additional observations from a re-analysis of the deposited data

Results flagged for a closer look

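The effect of a KO differed between the lines for 3 results in edgeR's interaction test with the replicate number as a block. EED had a KO effect that was higher in 67NR than in 168FARN by 0.63 ± 0.19 (SE) on the log2 scale for *Kmt2c* KO (adjusted p = 0.014) and by 0.74 ± 0.19 for *Kmt2d* KO (adjusted p = 0.007). BMI1 had a difference of 0.70 ± 0.22 for *Kmt2d* KO (adjusted p = 0.024). In the blocked fits within each line, EED stood at 0.61 and 0.57 in the *Kmt2c* KO and *Kmt2d* KO cells of 67NR and at -0.11 and -0.23 in those of 168FARN. These were 1 of 9 and 2 of 9 members, where the blocked interactions called 36.3% and 29% of all genes. Without the block, the differences were 0.54, 0.68 and 0.64 and the adjusted p-values 0.55, 0.48 and 0.53.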

How the results depend on the processing

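With the replicate block, the number of the 9 members called went from 0 to 2 in *Kmt2c* KO and from 1 to 2 in *Kmt2d* KO cells of 67NR, from 0 to 4 between the WT lines, and from 0 to 1 and 0 to 2 in the *Kmt2c* and *Kmt2d* interactions; it changed no other call of a member. DESeq2 called 1 member in *Kmt2c* KO cells of 67NR. With replicates 1 and 2 only, chosen after seeing the data, the counts were 1 in *Kmt2c* KO cells of 168FARN, 3 and 2 in *Kmt2c* KO and *Kmt2d* KO cells of 67NR, 1 between the KO pools of 67NR, 5 between the WT lines and 3 in each interaction; over all genes these comparisons called 29.5%, 60.4%, 51.2%, 22.1%, 68.9%, 42.9% and 36.6%. Leaving out 1 library gave 0 to 1 member in *Kmt2d* KO cells of 67NR. EZH2 changed sign with replicates 1 and 2 only in *Kmt2c* KO cells, to -0.10 in 168FARN and 0.061 in 67NR, and EZH1 in *Kmt2d* KO cells of 168FARN to -0.0077 without the filter on low counts. When 1 library was left out, log2 fold changes ran, in 168FARN *Kmt2c* KO, from -0.50 to 0.18 for EZH1, from -0.73 to 0.73 for EZH2 and from -0.60 to 0.094 for SUZ12, and in *Kmt2d* KO from -0.33 to 0.35 for EZH1 and from -0.76 to 0.60 for EZH2. In 67NR, EZH2 ran from -0.32 to 0.34 in *Kmt2c* KO and from -0.29 to 0.41 in *Kmt2d* KO cells, and EZH1 between the WT lines from -0.013 to 0.65. Over all alternatives and members, 141 values had the opposite sign, 0 of them from a called value. The cause of these changes was not tested.

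Over all genes, the block raised the number called from 23 to 1308 and from 19 to 814 in *Kmt2c* KO and *Kmt2d* KO cells of 168FARN, from 21 to 812 between its KO pools, from 4669 to 7174 and 3116 to 5707 in 67NR, from 90 to 841 between its KO pools, from 5062 to 8702 between the WT lines and from 1596 to 5044 and 1013 to 4024 in the interactions. With replicates 1 and 2 only, 3622 and 2597 genes were called in 168FARN and 8366 and 7095 in 67NR, and DESeq2 called 293 and 254 in 168FARN. Only the libraries compared gave 2 and 0 genes in 168FARN. Each member had at least 108 reads in every library, and the part of depth in the width of the intervals was not tested. Fits without the block left 95% intervals for EZH2 in 168FARN that spanned more than 1 log2 unit on either side of 0.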
